A study of Mus musculus with 2 samples.

Results

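MicroRNA genes often lie inside longer genes whose products most cells use, and 9 entries listed as being of this kind were examined in the midbrain of mouse embryos. They were Mir744, Mir151, Mir361, Mir652, Mir423, Mir425, Mir186, Mir340 and Gm24083, and together they made up 9 of the 1973 miRNA genes in the deposited tables. The members were listed by name and not picked by a threshold on their values. Gm24083 is annotated across Mir191 on the opposite strand, so its opposite-strand reads were taken as Mir191. Both libraries came from 1 group, midbrain of healthy B6NCrl embryos at day 16.5, with the sexes pooled. The pool of replicate 2 held 37 embryos, and the labels used here state no number for that of replicate 1. With a single tissue, stage and genotype, these data can show how abundant the genes were and how far the pools differed, but not in how many tissues they are expressed. Host mRNAs were not measured, and whether Mir191 and Mir425 lie in a protein-coding gene depends on the annotation.

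A miRNA is cut from a hairpin in a longer transcript, first by Drosha in the nucleus and then by Dicer in the cytoplasm, and 1 strand of the resulting duplex is loaded onto an Argonaute protein. Bases 2 to 8 of the loaded strand, the seed, pair with target mRNAs, which are then repressed. A miRNA in an intron on the strand of its host can be transcribed together with that host. miR-191, miR-361 and miR-423 are often used as normalisers in miRNA assays because they are found in many cell types.

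The sequences below are the strands best known for each gene, with both strands for Mir423, and they are shown so that the seeds can be compared. They are RefSeq sequences on GRCm38.p6, written 5′ to 3′, with the seed in capitals.
miR-744-5p: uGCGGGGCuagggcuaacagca
miR-361-5p: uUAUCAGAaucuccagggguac
miR-652-3p: aAUGGCGCcacuaggguugug
miR-191-5p: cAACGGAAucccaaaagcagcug
miR-423-5p: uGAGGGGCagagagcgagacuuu
miR-423-3p: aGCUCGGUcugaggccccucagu
miR-425-5p: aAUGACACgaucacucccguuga
miR-186-5p: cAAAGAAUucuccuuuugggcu
miR-340-5p: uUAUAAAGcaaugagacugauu
RefSeq entries were matched for 8 of the 9 genes, all but Mir151, and gave 16 mature sequences of 21 to 25 bases, within the insert size of below 30 nt. Their 16 seeds all differed, so no pair of these genes shared a seed. Of the 16 seeds, 2 were also found in a mature miRNA of another gene. Levels are CPM, the reads of a gene per 1000000 sense-strand miRNA reads. miR-489-3p shares AUGACAC with miR-425-5p, and Mir489 had 3.41 CPM in replicate 1 and 1.69 CPM in replicate 2. miR-6921-5p shares GAGGGGC with miR-423-5p, and Mir6921 had 1.14 and 0.188 CPM. The deposited counts are summed over the whole hairpin, so the share of the 5p and the 3p strand is unknown.

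All 9 genes were well expressed, with at least 4307 reads in each library, and all passed the minimum of 10 reads in both libraries that 412 of the 1973 genes (20.9%) met. Their median level was 3340 CPM, against 111 CPM over all detected genes. They stood between percentiles 75.7 and 91.7 of the detected genes by mean level. Together their reads equalled 2.95% of the sense miRNA read total in replicate 1 and 2.84% in replicate 2, or 2.89% ± 0.075 (SD, n = 2). The opposite-strand reads taken as Mir191 are not part of that total, and without them the mean was 2.56%. Since an insert covers a whole mature miRNA, levels are given per molecule read and were not divided by length. Differences in how well each sequence is ligated and amplified were not tested.

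Mir744 and Mir151 were the most abundant. Mir744 lies in an intron of Map2k4, the gene of a kinase that activates JNK. It had 6120 CPM in replicate 1 (95% Wilson interval 6059 to 6182) and 5293 CPM in replicate 2 (5232 to 5355), a mean of 5707 ± 585 CPM and rank 35 of all genes. Mir151 is carried by Ptk2, which encodes focal adhesion kinase, and had 5610 CPM (5551 to 5669) and 5391 CPM (5329 to 5453). Its mean was 5500 ± 155 CPM, rank 36. The values of the 2 genes overlapped, and their means differed by 206 CPM, less than the SD of Mir744. Each interval uses the reads of a single library, so it covers counting error only and not the spread between pools. Reads without molecular identifiers are not independent molecules, so the intervals can be too narrow even for counting error.

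The 2 X-linked genes came next, at overlapping levels. Mir361, within Chm, the gene of a Rab escort protein, had 4428 CPM in replicate 1 and 4199 CPM in replicate 2 (mean 4313 ± 162, rank 44). Mir652, within the transmembrane protein gene Tmem164, had 4309 and 4208 CPM (mean 4258 ± 71.3, rank 45). Their ranges overlapped and their means lay 54.5 CPM apart, within the SD of Mir361. Mir151 exceeded Mir361 by 1187 CPM, with no overlap between the libraries.

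Mir191 and Mir423 stood below the X-linked pair. Mir191 had 3217 CPM in replicate 1 (19788 reads) and 3463 CPM in replicate 2 (18396 reads), a mean of 3340 ± 174 CPM and rank 58. All of these reads lay opposite Gm24083. Of the other 8 genes, Mir425 had 3 opposite-strand reads in replicate 1 and the rest had 0 in both libraries. On the strand of Gm24083 itself 0 reads were counted in either library, which allows up to 0.488 CPM in replicate 1 and 0.565 CPM in replicate 2. Mir423, in Nsrp1, the gene of a nuclear speckle protein of splicing, had 2911 and 3192 CPM (mean 3051 ± 199, rank 63). Mir191 was above Mir423 in both libraries, and their means differed by 288 CPM. Their ranges were only narrowly apart, since the lower value of Mir191 was 3217 CPM and the higher value of Mir423 was 3192 CPM.

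The other 3 genes were several times lower. Mir425 had 1010 CPM in replicate 1 and 927 CPM in replicate 2 (mean 968 ± 58.5, rank 94). Mir186, inside Zranb2, a splicing factor gene, had 961 and 925 CPM (mean 943 ± 26.0, rank 95). Mir340, in Rnf130, the gene of a RING-type ubiquitin ligase, had 901 CPM (878 to 925) and 811 CPM (787 to 835), a mean of 856 ± 63.9 CPM and rank 101. Mir423 exceeded Mir425 by 3.15-fold, the widest step between neighbours in the order of the 9 genes. Mir425 and Mir186 overlapped, while Mir186 and Mir340 did not. From Mir744 to Mir340 the levels spanned 6.67-fold.

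**Figure D1:**
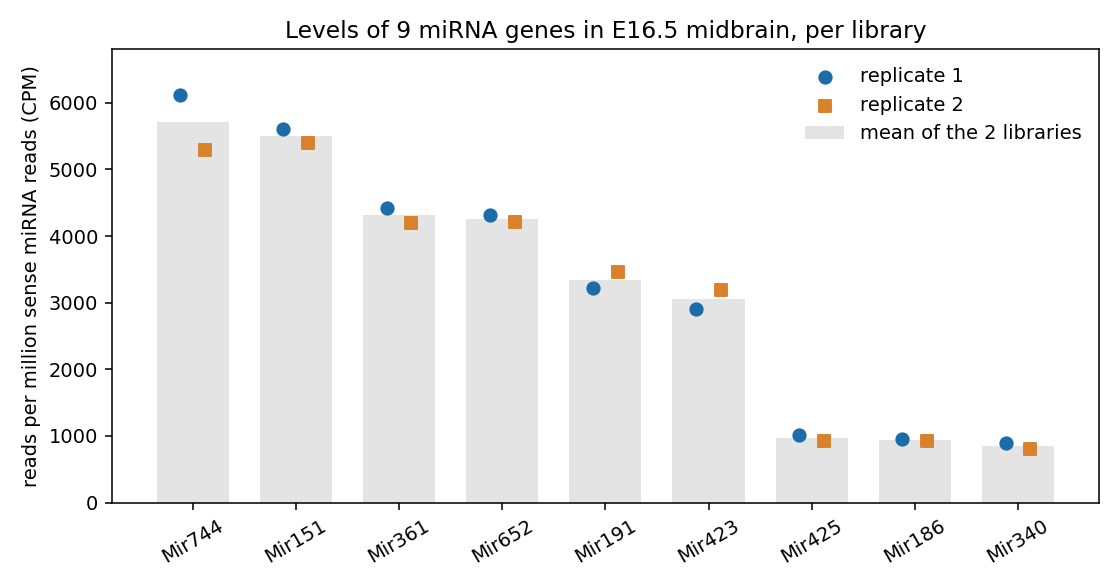
Level of each gene in CPM, as bars for the mean of the 2 libraries, with circles for replicate 1 and squares for replicate 2. The first 6 genes sit between 2911 and 6120 CPM in both libraries, and Mir425, Mir186 and Mir340 between 811 and 1010 CPM.

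The order was nearly the same in each library. Places changed within the 2 overlapping pairs at the top, since in replicate 2 Mir151 exceeded Mir744 and Mir652 exceeded Mir361. The other 5 genes kept their places. With 2 values for each gene, the smallest two-sided p of an exact permutation test between genes is 0.333, so none was run.

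Of the 9 genes, 7 lay in introns of protein-coding genes on the same strand in GENCODE M21 (GRCm38, mm10). Mir744 (chr11:65734733-65734832, minus strand) is in intron 3 of Map2k4, 359 bases from the upstream exon. Mir151 (chr15:73254815-73254882, minus) is in intron 22 of Ptk2. Mir361 (chrX:113074824-113074893, minus) is in intron 9 of Chm, and Mir652 (chrX:142739000-142739097, plus) in intron 2 of Tmem164, an intron of 69090 bases. Mir423 (chr11:77078064-77078172, minus) is in intron 1 of Nsrp1 and begins 263 bases from the start of that gene, the shortest distance among the 7. Mir186 (chr3:157544279-157544349, plus) is in intron 8 of Zranb2, and Mir340 (chr11:50069702-50069799, plus) in intron 2 of Rnf130. Intron numbers follow the principal transcript, or the longest where none is marked. No annotated transcript spanning these 7 had an exon at the hairpin.

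Mir191 and Mir425 were placed differently by the 2 annotations. Mir191 (chr9:108568319-108568392, plus) and Mir425 (chr9:108568777-108568861, plus) are 384 bases apart. In GENCODE M21 both lie in the single exon of a transcript of the lincRNA gene 4833445I07Rik, while another transcript of that gene has an intron at Mir191. Mir425 ends 1024 bases before Dalrd3 begins. In RefSeq, on the same assembly, Dalrd3 spans chr9:108567484-108572773 and holds both. Whether these 2 genes sit inside a protein-coding gene therefore depends on the annotation. Human DALRD3 takes part in the methylation of certain tRNAs. No other miRNA gene was annotated within 10 kb of any of the other 7.

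The 7 intronic genes stood high among miRNA genes of their kind. Over the other 157 detected genes in introns of protein-coding genes the median was 50.9 CPM, and 34 of them (21.7%) reached the level of Mir340. Over the other 81 detected genes in non-coding genes the median was 218 CPM, and 24 (29.6%) did so. As the 9 genes were listed with their abundance known, this is a description without a test.

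**Figure D2:**
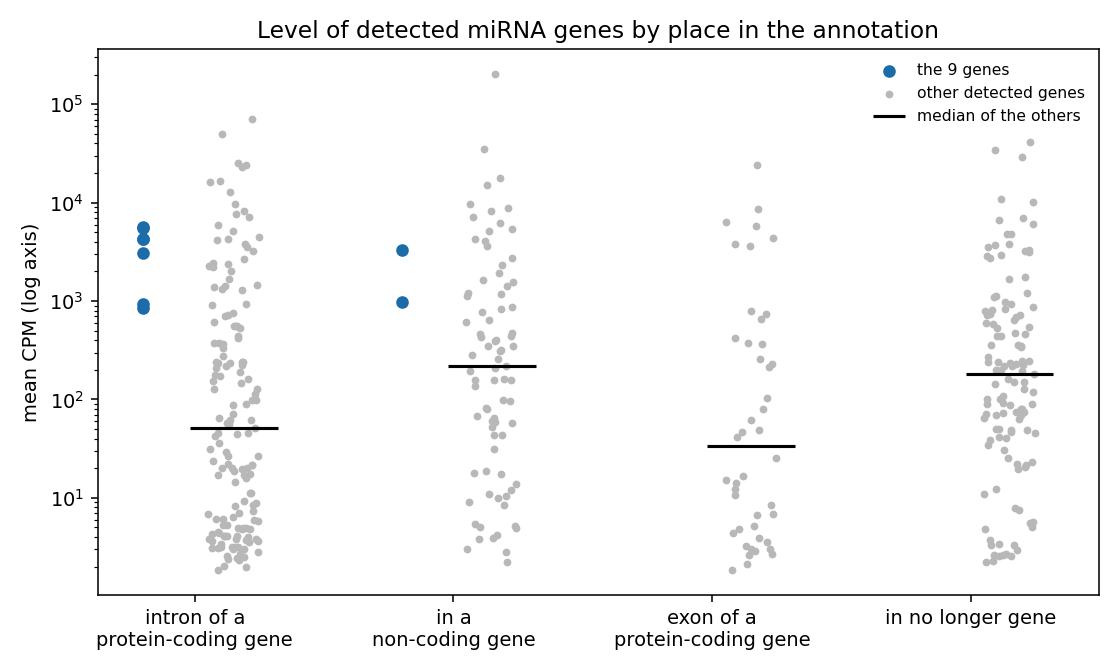
Mean level (CPM, log axis) of the 412 detected miRNA genes, grouped by what GENCODE M21 places on their strand, with the 9 genes as large points left of the others and black lines for the medians of the others. The 7 intronic and the 2 lincRNA genes lie above the median of the others in their groups, which are 50.9 and 218 CPM.

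Mir191 and Mir425 share a stretch of DNA but not a level. Their RefSeq hairpins are shown because the 2 are set against each other here, with the mature strands in capitals.
Mir191: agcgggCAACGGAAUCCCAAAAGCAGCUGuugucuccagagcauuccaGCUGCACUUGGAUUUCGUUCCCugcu
Mir425: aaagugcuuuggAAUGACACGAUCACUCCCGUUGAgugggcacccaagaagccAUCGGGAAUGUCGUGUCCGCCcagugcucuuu
There were 3.19 reads of Mir191 for each read of Mir425 in replicate 1 and 3.74 in replicate 2, and the mean levels differed 3.45-fold. The log2 ratio of replicate 1 over replicate 2 was -0.11 for Mir191 and 0.12 for Mir425, a difference of -0.23. Because both genes are compared within a library, this difference does not depend on scaling. It passed Fisher's exact test with Benjamini-Hochberg adjustment over all adjacent same-strand pairs of detected miRNA genes within 10 kb (adjusted p = 2.6e-12), a comparison chosen after the values were seen. That test compares the libraries and covers counting error only. Of the 115 pairs, 30.4% passed it, and of the 18 pairs with both genes at or above the level of Mir340, 12 did (66.7%). The median difference in log2 ratio between paired genes was 0.16, and 42 of 115 pairs, this one included, differed by as much as these. Over the 18 pairs at or above the level of Mir340 the median difference was 0.15, and 6 of them, this pair included, differed by as much. In level, the 115 pairs differed by a median of 6.87-fold, and 80 of 115, this pair included, differed at least as much as Mir191 and Mir425. These levels leave out reads that mapped to several places, which can widen the fold in pairs with a multi-copy gene. To what extent it did so was not tested.

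**Figure D3:**
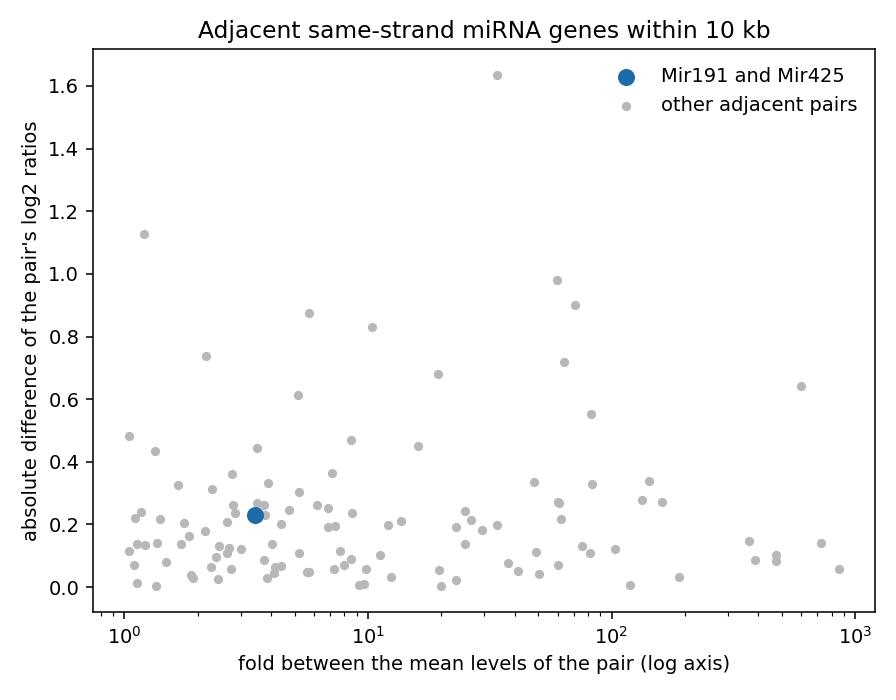
Each point is a pair of adjacent same-strand miRNA genes within 10 kb (115 pairs), with the fold between their mean levels on a log axis and the absolute difference of their log2 ratios between the libraries. Mir191 and Mir425, the large point at 3.45-fold and 0.23, lie within the cloud of other pairs.

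The hairpins of the 8 genes in RefSeq differed in base composition. Mir186 (33.8% G and C), Mir340 (37.8%) and Mir361 (41.4%) were poor in G and C. Only 1.97%, 4.79% and 12.96% of the 355 detected genes with a RefSeq hairpin had less than these 3, in that order. Mir744 was the richest at 56.0%, followed by Mir425 (54.1%) and Mir191 (54.1%). The median over detected hairpins was 50.7%. The predicted folding energy per base ran from -0.50 kcal/mol in Mir652 to -0.35 in Mir340, around a median of -0.43. Mir361 (-0.41), Mir425 (-0.37) and Mir340 were predicted to fold less stably per base than most detected hairpins, and 32.4%, 18.03% and 10.42% of those, in that order, were less stable than they. The longest run of bases that any of the 8 shared with another of 1005 RefSeq hairpins was 15, for Mir744, and 11 to 14 for the others. Hairpins on chromosome 18 were left out of both the 1005 and the 355. These runs are shorter than any of the 16 mature sequences. Reads that mapped to several places, which are not listed by gene, were not used here.

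The libraries differed little in these genes. Their log2 ratios of replicate 1 over replicate 2 ran from -0.13 to 0.21, at most 1.16-fold, and the median absolute ratio was 0.11, against 0.18 over all detected genes. Over the 58 other detected genes between the lowest and the highest of the 9 levels it was 0.13, and 20 of those 58 differed by at least as much as Mir744.

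By a two-sided exact binomial test of the reads, adjusted with Benjamini-Hochberg over 412 detected genes, 8 of the 9 genes differed between the libraries. The test compares libraries, not conditions, and at these depths small differences pass it. It called 47.6% of all detected genes, and 87.9% of the 58 others at like levels. Higher in replicate 1 were 6 genes, a direction called for 29.1% of detected genes, and higher in replicate 2 were 2, a direction called for 18.4%. With TMM scaling, which shifts every log2 ratio by -0.05, 4 were higher in replicate 1, 2 higher in replicate 2 and 3 not called. Over all 412 detected genes, TMM scaling called 97 higher in replicate 1 and 90 higher in replicate 2. EdgeR's exact test was run with the biological coefficient of variation fixed at 0.2. This spread between pools was assumed and not estimated from these data. Under it 0 of the 9 passed, and 0 had an unadjusted p under 0.05. With differences of at most 1.16-fold this outcome rests on the assumed value, so it does not show that the pools were alike. That test called 1.46% of detected genes.

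Mir744 had the largest ratio, 0.21 (counting SE 0.011, adjusted p = 4.3e-75 by the exact binomial test), and was higher in replicate 1 under each of the 3 scalings. So were Mir340 at 0.15 (adjusted p = 6.7e-07) and Mir425 at 0.12 (adjusted p = 2.5e-05). Mir423 at -0.13 (adjusted p = 4.2e-17) and Mir191 at -0.11 (adjusted p = 3.1e-12) were lower in replicate 1 under each scaling. For Mir361 the ratio was 0.08 (adjusted p = 1.7e-08), and with RLE size factors it was 0.03 and did not pass. Mir151 at 0.06 (adjusted p = 2.2e-06) and Mir652 at 0.03 (adjusted p = 0.021) passed with library totals, but with either TMM or RLE factors they did not, and the sign of Mir652 turned to -0.01. Mir186 at 0.06 did not pass (adjusted p = 0.084). The 2 genes lower in replicate 1 were neighbours in level, and Mir191 and its genomic neighbour Mir425 lay on opposite sides of 0.

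**Figure D4:**
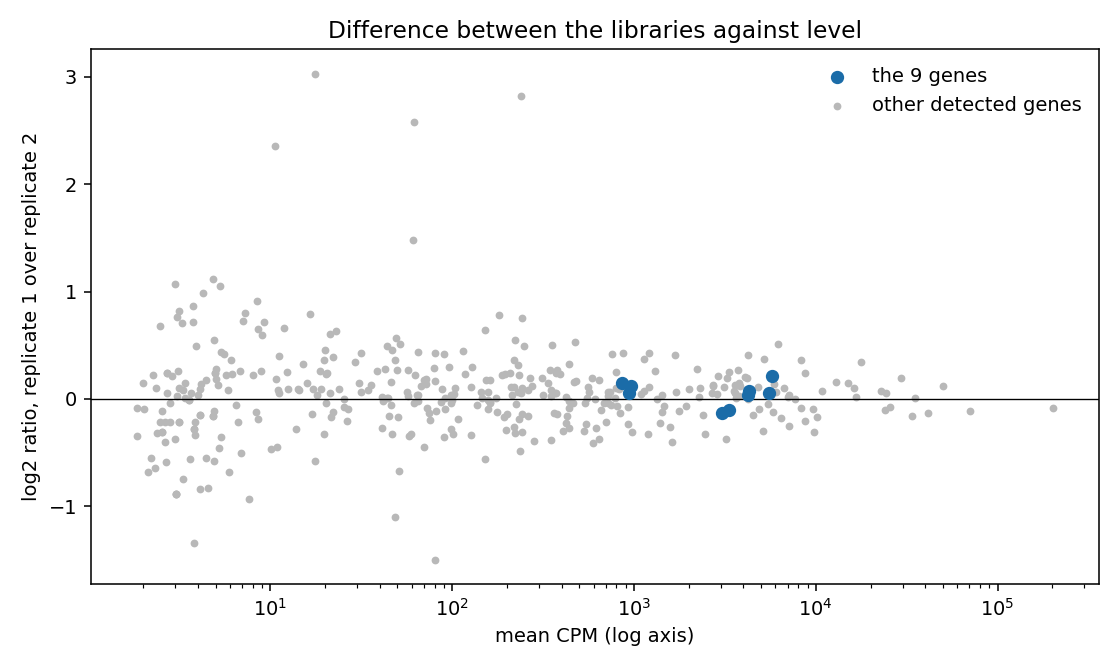
Log2 ratio of replicate 1 over replicate 2 against mean CPM (log axis) for the 9 genes as large points and the other detected genes in grey. The 9 lie between -0.13 and 0.21, inside the band of genes at like levels.

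**Figure D5:**
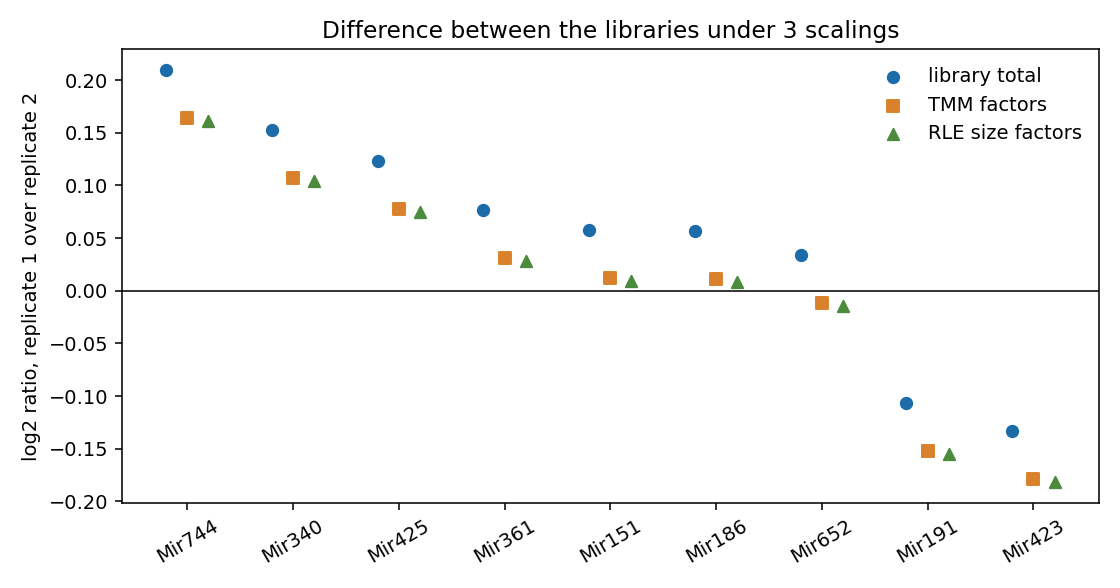
Log2 ratio of replicate 1 over replicate 2 for each gene with library totals (circles), TMM factors (squares) and RLE size factors (triangles). Mir744, Mir340 and Mir425 stay above 0 and Mir191 and Mir423 below, while Mir652 crosses 0.

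Genes outside the list were also searched for the pair of levels nearest to that of each of the 9. Likeness was the Euclidean distance between log2(CPM + 1) values over the 2 libraries. The nearest to Mir744 was Mir153 (distance 0.08), known from neurons, at 6142 and 5594 CPM. Mir140, known from cartilage, was nearest to Mir361 (0.03) at 4449 and 4271 CPM, and Mir598 to Mir652 (0.03). Mir181a-1 was nearest to Mir151 (0.08), Mir434 to Mir191 (0.17), Mir379 to Mir423 (0.18), and Mir325 to Mir340 (0.03). Mir15b, in Smc4, was nearest to both Mir186 (0.10) and Mir425 (0.14), at 945 and 866 CPM. With 2 libraries, such likeness is one of level and not of pattern.

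A wider list of miRNAs counted as lying in broadly expressed hosts was drawn up with earlier results of these data known. Host expression was not measured. Some entries, among them Mir484, Mir320 and Mir674, lay in no longer gene on their strand in GENCODE M21. Of the 52 entries on the list 50 were analysed, and all 50 were detected, at a median of 587 CPM. The highest were Mirlet7g in Wdr82 (67761 and 73408 CPM), Mir30e in Nfyc (23564 and 22331 CPM) and Mir26b (16820 and 16573 CPM). Next stood Mir93 (9402 and 7944 CPM) and Mir106b (9352 and 7287 CPM) in Mcm7, and Mir342 (7705 and 7712 CPM). In the binomial test 18 of the 50 were higher in replicate 1, 7 higher in replicate 2 and 25 did not pass. Of all 412 detected genes, the same test called 196 (47.6%), with 120 higher in replicate 1 and 76 higher in replicate 2. The share called among the 50 was thus close to that of all detected genes. The median log2 ratio of the 50 was 0.062, against 0.058 over the 9 genes and 0.055 over all detected genes.

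Sense miRNA reads numbered 6151299 in replicate 1 and 5312642 in replicate 2, which is 45.1% and 44.2% of all reads. As a check of the tissue, 7 of 8 neuronal markers were detected, with summed levels of 50356 and 50319 CPM. The highest were Mir149 (24868 and 26129 CPM) and Mir137 (15865 and 14350 CPM), while the 3 mir-124 copies stayed below 6 CPM each. Reads that mapped to several places were not counted, so levels here can understate any marker miRNA encoded by several copies, such as mir-124. Of the other cell types, 5 epithelial markers of the mir-200 family summed to 663 CPM in replicate 1 and 116 CPM in replicate 2. All 5 were at least 3.39 CPM in both libraries. This gap runs the same way as those of Mir744, Mir340 and Mir425, and its part in them was not tested. The 3 endothelial and mural markers summed to 29337 and 30808 CPM, the 3 red cell markers to 222 and 273 CPM, the choroid plexus marker Mir204 to 2444 and 2016 CPM, and the myeloid marker Mir223 to 135 and 140 CPM. The 3 oligodendrocyte lineage markers summed to 1524 and 1700 CPM. The 3 muscle markers summed to 19.2 and 18.1 CPM, with Mir1a-1 at 0.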

How the data were processed

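MicroRNA-seq libraries were made from 2 pools of embryonic midbrain. The deposited values are raw counts of reads per miRNA gene for either strand, the sense strand and the opposite strand, on mm10 with GENCODE M4, per the deposited README texts. The aligner, counter and trimming are not given in the sources used here. Rows that name no gene (54.9% and 55.8% of sense-column reads) stayed out of library sizes and tests. Symbols and positions came from GENCODE M21 (1894 of 1973 identifiers matched) and sequences from RefSeq GRCm38.p6.

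CPM is over summed sense reads. For Gm24083, opposite-strand reads were used, as Mir191. Ratios add 0.5 reads. Genes with 10 or more reads in both libraries were compared by exact binomial tests across all such genes, with Benjamini-Hochberg adjustment at 0.05. The replicates share 1 group, so no quasi-likelihood test between groups could be made. Their counts differed by more than sampling noise (chi-square per degree of freedom 85.8), and they were counted as 2 samples. The binomial test was tried on simulated counts that held only sampling noise and set fold changes. That trial does not cover the further spread between these libraries. TMM factors (1.02 and 0.984) and the fixed-variation test used edgeR 4.0.16 in R 4.3.3. Other steps used Python 3.11.15, scipy 1.17.1 and ViennaRNA 2.7.2.

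The members and lists were chosen with earlier results of these data known. Named were all members, their nearest gene by level, genes that share a seed, genes within 10 kb, the 6 highest of the wider list, and the cell type markers. Scaling, denominator, filter, strand, test and left-out replicates were varied.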

Additional observations from a re-analysis of the deposited data

Results flagged for a closer look

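Reads that mapped to several places are signal outside every comparison above. Replicate 1 held 4816290 of them (35.3% of its reads) and replicate 2 held 4391928 (36.5%). The tables do not list them by gene.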

How the results depend on the processing

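Of the 9 genes, 8 differed between the libraries with library totals, 6 with TMM factors, 5 with RLE size factors and 0 with edgeR's exact test with the coefficient of variation set to 0.2, under which 6 of 412 detected genes did, against 196. Each of the 8 lost its call there, with an adjusted p of 1. TMM and RLE factors shift all log2 ratios by -0.05. Over all 412 detected genes, 187 were called with TMM and 186 with RLE factors, against 196 with library totals. The log2 ratio of Mir652 reversed, at -0.011 with TMM and -0.014 with RLE factors, against 0.034 with library totals. Of all called genes, 61.2% were higher in replicate 1 with library totals and 51.1% with RLE factors. Minimums of 1 read in either library or 50 in both left 8 of the 9 called. Over all genes tested, these minimums called 201 of 751 and 186 of 310, in that order. Without Mir191 the summed share was 2.56% in place of 2.89%, and the median level 3655 CPM in place of 3340, with fewer genes in each. Leaving out 1 library gave shares of 2.84% to 2.95%, medians of 3217 to 3463 CPM and 9 detected genes each time. Counting Gm24083 on its own strand left 8 detected. Ranks of the 9 genes fell by 2 to 5 places when opposite-strand reads were used at every gene with 100 or more, an alternative added after seeing the data. Leaving out a library leaves no value for a difference between libraries. No paired analysis was possible because there is 1 group.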
